A study of Mus musculus with 23 samples.

Results

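Neurogenesis and cyclin D genes in the hippocampus were followed as 10 genes, chosen by symbol from the deposited expression table: Eomes, Neurod1, Dcx, Sox11, Igfbpl1, Draxin, Mki67, Top2a, Ccnd1 and Ccnd2. The table lists 21785 genes, and all 10 were found in it, each with 1 entry. Messenger RNA was sequenced in 23 hippocampus libraries from mice of 4 genotypes. There were 5 WT libraries, 7 Dp16 libraries, 6 labelled Dp16/D-KO and 5 labelled Dp16;D-KO/K-KO. Dp16, in full Dp(16)1/Yey, duplicates a stretch of mouse chromosome 16 that corresponds to much of human chromosome 21, and the strain is used to model Down syndrome. All 3 groups other than WT carry it. D-KO marks a knockout allele of Dyrk1a and K-KO one of Kcnj6, so that the gene dose would return to normal. The question named by the series is how the hippocampal transcriptome responds to it. Batch 1 holds 10 libraries, described as total RNA from C57BL/6 mice aged 2-3 months, and batch 2 holds 13, described as polyA RNA from mice of over 90% C57/B6 background with no age in the labels. Batch 1 and batch 2 gave 2 and 3 of the WT libraries, 3 and 4 of Dp16, 3 and 3 of Dp16/D-KO, and 2 and 3 of Dp16;D-KO/K-KO. The titles carry a letter, F or M, for sex, and whether each library is a separate animal is not stated, so the p-values below measure the spread between libraries.

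The adult dentate gyrus keeps making granule neurons. Quiescent stem cells of the subgranular zone give rise to intermediate progenitors that divide, leave the cell cycle and pass through an immature neuron stage before they become mature granule neurons. Eomes (Tbr2) is a transcription factor of the intermediate progenitors, Neurod1 a transcription factor that drives neuronal differentiation and stays on in granule neurons, Dcx (doublecortin) a microtubule protein of migrating immature neurons, and Sox11 a transcription factor of immature neurons. D-type cyclins bind Cdk4 and Cdk6 and carry cells from G1 towards S phase, and the kinase DYRK1A phosphorylates D-type cyclins, which leads to their degradation. That step acts on protein, and only RNA was measured here.

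Values are RPKM, reads scaled to gene length and to the mapped reads of the library, as the authors deposited them, so levels can be compared between genes. In mean RPKM over the 23 libraries, Ccnd2 stood highest at 16.3, before Ccnd1 at 14.3 and Neurod1 at 11.8. Dcx (2.66), Sox11 (2.49) and Igfbpl1 (1.25) followed, and Eomes (0.643), Top2a (0.427), Draxin (0.392) and Mki67 (0.370) stood lowest. Between neighbours in this order the ranges over libraries overlapped, except that the lowest Neurod1 value, 8.46, was above the highest Dcx value, 3.63. None of the 10 genes lies on chromosome 16. At an estimated depth of 14.65 to 17.4 M reads per library, the median library held about 1731 reads of Ccnd2 and 881 of Ccnd1. It held about 60 reads of Mki67, 37 of Top2a, 33 of Draxin and 24 of Eomes, so the low genes carry the larger counting error.

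Several libraries went against their labels or stood apart. Dyrk1a, 1 copy of which the labels give as knocked out in both groups with D-KO, had a mean of 16.9 RPKM in WT and 24.3 in Dp16, and its mean was 24.3 in Dp16/D-KO and 24.7 in Dp16;D-KO/K-KO libraries. Kcnj6 had 18.3 in WT, 26.9 in Dp16, and 26.0 and 25.6 in these 2 groups, so neither gene stood near its WT level there. Against Dp16 the log2 changes were -0.01 (adjusted p = 0.935) and 0.02 (adjusted p = 0.889) for Dyrk1a, and -0.04 (adjusted p = 0.842) and -0.06 (adjusted p = 0.822) for Kcnj6, none past the test in limma. The sources used here do not say which part of each transcript the knockout alleles remove, and reads from an altered transcript cannot be told apart in a value per gene. The directions below therefore belong to the libraries with these labels. The Y-linked gene Ddx3y was at 12.65 RPKM in WT F1 and at 0.01 in WT M3, each the level of the other letter, and a score over the 200 genes with the largest batch difference put WT M3, labelled batch 2, among the batch 1 libraries. Values without these 2 libraries are given beside the main differences from WT, and without them the genes called over the whole table fell in number from 202 to 95 in Dp16 against WT. Other values within batch 1 or batch 2 count WT M3 by its labelled batch. Of 10 cerebellar marker genes, chosen after the data were seen, all were highest in Dp16;D-KO/K-KO M2, where they summed to 201.29 RPKM against 42.93 in M1 of that group and 5.54 to 26.5 elsewhere.

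**Figure D1:**
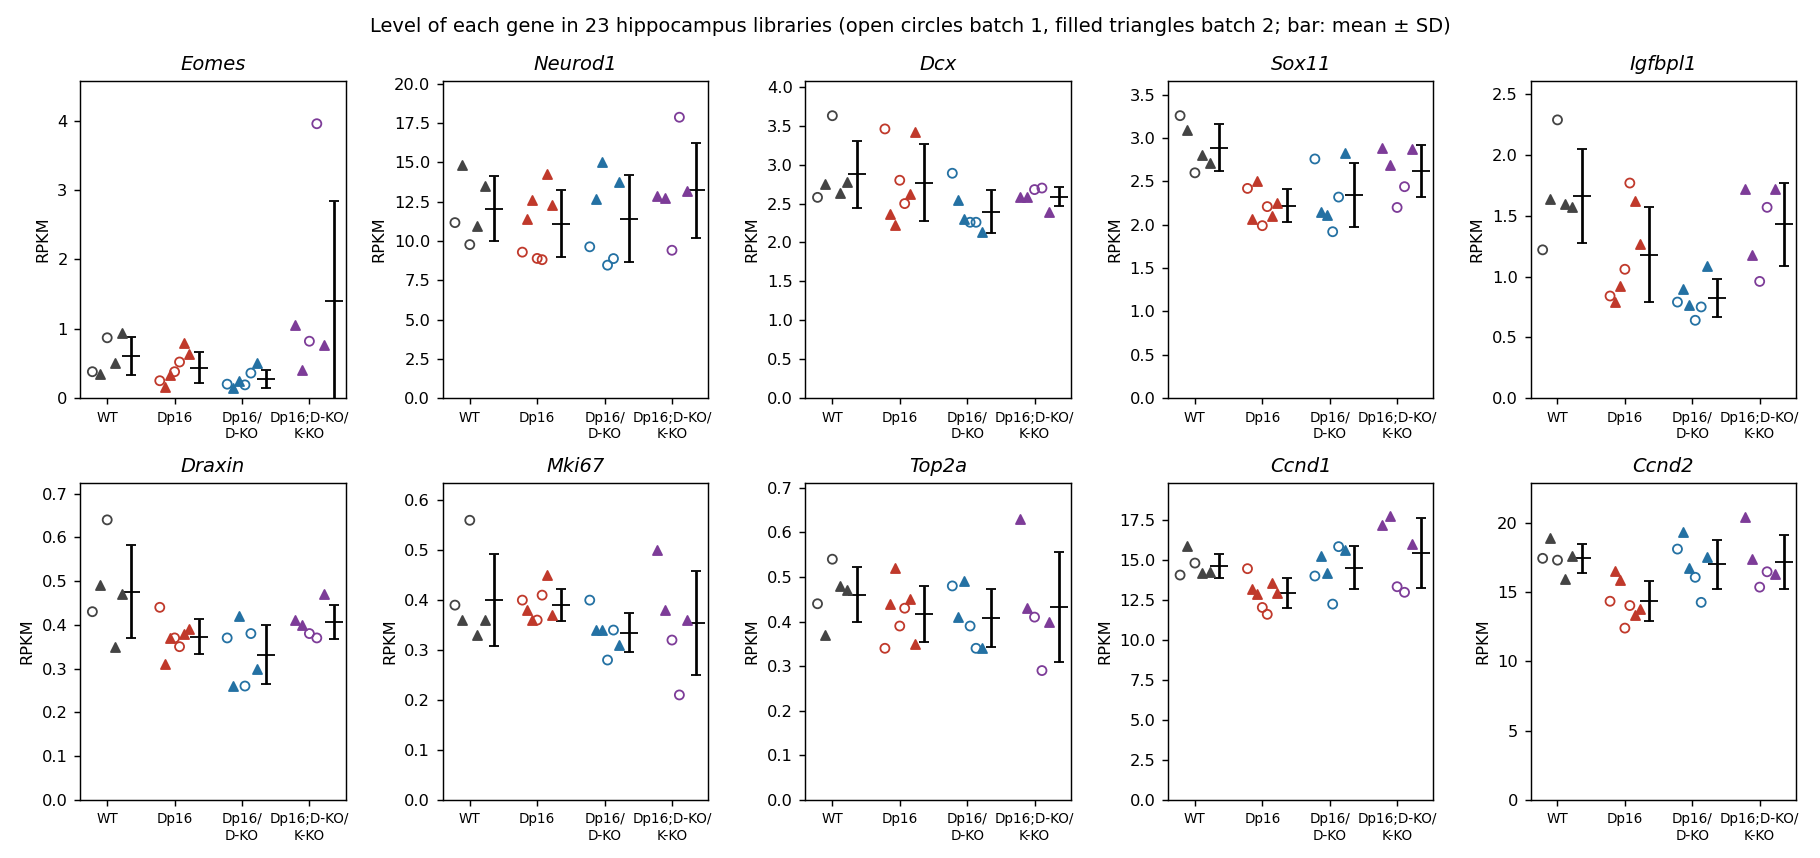
RPKM (vertical axis, from 0) of each of the 10 genes in every library, by genotype; open circles are batch 1, filled triangles batch 2, and the bar to the right of each group is its mean ± SD, cut at 0 for Eomes in Dp16;D-KO/K-KO. Sox11 in Dp16 lies wholly below WT, Igfbpl1 in Dp16/D-KO lies wholly below WT, and Eomes has 1 library at 3.96.

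Among the 10 genes, the cyclin Ccnd2 alone passed the test across all genes between the Dp16 and WT hippocampus. It was lower in Dp16, and its means in both groups with a knockout label were near that of WT. Ccnd1 was also lowest in Dp16, by a smaller difference from WT that did not pass the test. Sox11 was lower in every Dp16 library than in every WT library. It was just short of the threshold of the test with all libraries, and far from it without WT F1 and WT M3. Igfbpl1 was lowest in the libraries labelled Dp16/D-KO. Dcx, the usual marker of immature neurons, passed the test in no comparison. In bulk tissue, fewer cells of a type and less RNA per cell cannot be told apart.

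Eomes, which marks the intermediate progenitors and lies at chr9:118478189-118486132 (mm10, plus strand), was at 0.38, 0.35, 0.87, 0.50 and 0.94 RPKM in WT F1, F2, M2, M3 and M4. In Dp16 it ran from 0.16 to 0.80 with a median of 0.38, and in the libraries labelled Dp16/D-KO from 0.15 to 0.51 with a median of 0.22. The Dp16;D-KO/K-KO libraries were at 1.06, 0.41, 0.82, 3.96 and 0.76 in F1, F2, M1, M2 and M3. M2 alone lay above all other libraries by a wide gap, and apart from it the groups overlapped, although 4 of the 5 Dp16;D-KO/K-KO libraries were above all 6 labelled Dp16/D-KO. Against Dp16/D-KO the log2 change of RPKM + 0.1 was 1.59 with a 95% interval of 0.88 to 2.29 and an adjusted p of 0.15 (limma, Benjamini-Hochberg), and against Dp16 it was 1.16 (0.49 to 1.84, adjusted p = 0.192). The authors' deposited table gives the first of these differences as 2.282 with an adjusted p of 0.007. Without M1 and M2, an alternative chosen after seeing the data, the changes were 1.19 (adjusted p = 0.559) and 0.77 (adjusted p = 0.701). The coefficient of variation was 120% over all libraries and 55.9% without M2, and between 45.7% and 51.3% within WT, Dp16 and Dp16/D-KO. Libraries with the letter M had more Eomes than those with F, 0.865 against 0.353 RPKM on average, by 0.83 on the log2 scale (adjusted p = 0.387 by limma). The M mean holds Dp16;D-KO/K-KO M2 at 3.96, and WT F1 and WT M3 were counted by their labelled letters.

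Neurod1 (chr2:79452641-79461108, minus strand) was at 11.17, 14.85, 9.77, 10.94 and 13.51 RPKM in WT F1, F2, M2, M3 and M4, and ran from 8.81 to 14.28 in Dp16 with a median of 11.41. In Dp16/D-KO it ran from 8.46 to 15.03 with a median of 11.16, and in Dp16;D-KO/K-KO it was at 12.87, 12.75, 9.41, 17.88 and 13.17 in F1, F2, M1, M2 and M3. The 4 groups overlapped throughout, with M2 of the last group again the highest library. In Dp16 and in Dp16/D-KO the libraries split by batch instead, and over all groups the means were 10.2 RPKM in batch 1 and 13.1 in batch 2. The batch difference of 0.37 (log2) had an adjusted p of 0.00247 in limma, a term for which 49.4% of all tested genes were called, and Neurod1 was the only one of the 7 tested genes called for it. Between genotypes its log2 changes ran from -0.12 in Dp16 against WT (adjusted p = 0.739) to 0.23 in Dp16;D-KO/K-KO against Dp16 (interval -0.03 to 0.50, adjusted p = 0.499). The latter was 0.02 without M1 and M2.

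Both genes are also expressed in the developing or adult cerebellum, Eomes in unipolar brush cells and Neurod1 in granule cells. In the library with the highest Eomes and Neurod1, the cerebellar genes Gabra6, Cbln3, Pcp2 and Car8 were at 18.56, 21.28, 53.84 and 17.31 RPKM. In M1 of the same group they were at 2.22, 4.90, 11.02 and 4.36, and in no other library did they exceed 0.58, 1.29, 2.89 and 1.96. In M1, Eomes was at 0.82, within the range of the other libraries but above every Dp16 and every Dp16/D-KO library, and Neurod1 was at 9.41. The part of the cerebellar markers in the Eomes and Neurod1 values of M1, M2 and the other libraries was not tested.

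**Figure D2:**
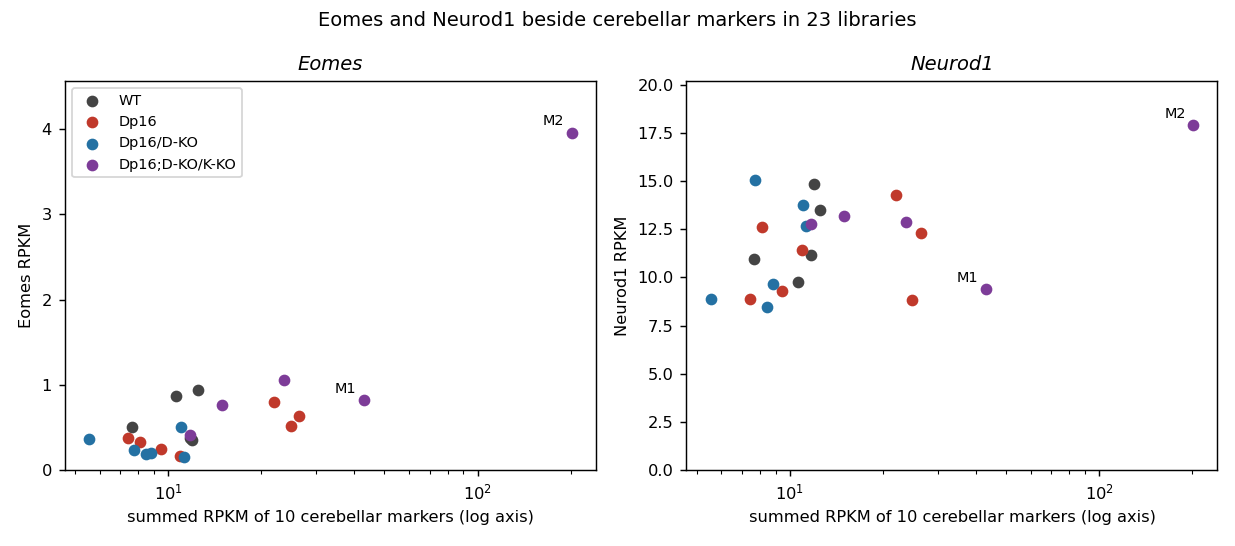
RPKM of Eomes and of Neurod1 (vertical axes) against the summed RPKM of 10 cerebellar markers (horizontal log axis) in 23 libraries, coloured by genotype, with M1 and M2 of Dp16;D-KO/K-KO named. M2, at a marker sum of 201.29, has the highest value of both genes, 3.96 and 17.88, while M1, at 42.93, lies within the range of the other libraries.

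Dcx (chrX:143855842-143933275, minus strand) was at 2.58, 2.75, 3.63, 2.64 and 2.78 RPKM in WT F1, F2, M2, M3 and M4. It ran from 2.23 to 3.46 in Dp16 with a median of 2.62, from 2.14 to 2.89 in Dp16/D-KO with a median of 2.28, and was at 2.59, 2.58, 2.68, 2.70 and 2.39 in Dp16;D-KO/K-KO. All groups overlapped, and WT M2 stood above the other WT libraries. The change in Dp16 against WT was -0.06 on the log2 scale, with an adjusted p of 0.843 (limma), and -0.16 without WT F1 and WT M3 (adjusted p = 0.707). The largest change was that of Dp16/D-KO against WT, at -0.26 with an adjusted p of 0.281, and -0.37 without those libraries (adjusted p = 0.148).

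Sox11 (chr12:27334268-27342718, minus strand) was at 3.26, 3.09, 2.60, 2.80 and 2.71 RPKM in WT F1, F2, M2, M3 and M4, a mean of 2.89 ± 0.275 (SD, n = 5). In Dp16 it ran from 1.99 to 2.51 with a median of 2.21 and a mean of 2.22 ± 0.189 (SD, n = 7). The highest Dp16 library lay below the lowest WT library, so these 2 groups did not overlap, which held in this direction for 0.308% of all tested genes. The log2 change was -0.37 with a standard error of 0.094, an interval of -0.56 to -0.17 and an adjusted p of 0.0515 in limma with Benjamini-Hochberg adjustment, just above the threshold of 0.05. Other settings put it on either side of the threshold, and without WT F1 and WT M3 it was -0.32 with an adjusted p of 0.321. Within batch 1 and within batch 2 alone the change was -0.34 each, with WT M3 counted in its labelled batch 2. A fit with a separate change per batch, without WT F1 and WT M3, gave -0.25 and -0.36, with 1 WT library left in batch 1. Sox11 ran from 1.92 to 2.83 in Dp16/D-KO with a median of 2.24, and the Dp16;D-KO/K-KO libraries were at 2.89, 2.69, 2.20, 2.44 and 2.88. Against Dp16 these groups overlapped with it and changed by 0.06 (adjusted p = 0.770) and by 0.23 (interval 0.03 to 0.42, adjusted p = 0.371).

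Igfbpl1 (chr4:45809507-45826827, minus strand) encodes a secreted protein with an insulin-like growth factor binding domain. It was at 1.22, 1.64, 2.29, 1.60 and 1.57 RPKM in WT F1, F2, M2, M3 and M4. In Dp16 it ran from 0.79 to 1.77 with a median of 1.06, and in the libraries labelled Dp16/D-KO from 0.64 to 1.09 with a median of 0.78. The latter all lay below WT, as 0.429% of all tested genes did in that comparison, while Dp16 overlapped with both. Dp16;D-KO/K-KO libraries were at 1.72, 1.18, 0.96, 1.57 and 1.72 and overlapped with every other group. In Dp16/D-KO against WT, where 1.28% of all tested genes were called, Igfbpl1 was the 1 gene of the 7 that was called. It fell to 0.545 times the WT level, a log2 change of -0.88 with a standard error of 0.184 and an adjusted p of 0.0151 in limma. The change was -0.98 without WT F1 and WT M3 (adjusted p = 0.0291), and -1.18 and -0.63 within batch 1 and batch 2 (adjusted p of 0.274 and 0.299). Without WT M2, the highest library, it was -0.75 with an adjusted p of 0.0532. The authors' deposited table calls the same difference, at -1.004 with an adjusted p of 0.002. In Dp16 against WT the change was -0.48 (interval -0.84 to -0.11, adjusted p = 0.217) and -0.58 without WT F1 and WT M3 (adjusted p = 0.352), and Dp16;D-KO/K-KO against Dp16/D-KO gave 0.66 (0.28 to 1.05, adjusted p = 0.243).

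Draxin (chr4:148098437-148131055, minus strand), a secreted axon guidance protein and inhibitor of Wnt signalling, was too low for the test across all genes. It was at 0.43, 0.49, 0.64, 0.35 and 0.47 RPKM in WT F1, F2, M2, M3 and M4, ran from 0.31 to 0.44 in Dp16 and from 0.26 to 0.42 in Dp16/D-KO, and was at 0.41, 0.40, 0.38, 0.37 and 0.47 in Dp16;D-KO/K-KO. All groups overlapped, with the lowest values in Dp16/D-KO. Draxin and the other low genes, Mki67 and Top2a, were compared on log2(RPKM + 0.1) by a two-sided exact permutation test that relabels libraries within batches, in 21 tests. Draxin was lower by 0.27 in Dp16 than in WT (log2 difference -0.27, exact permutation p = 0.0343 over 350 relabelings). It was lower by 0.41 in Dp16/D-KO (-0.41, exact permutation p = 0.0350), and by 0.29 in all carriers of the duplication pooled (-0.29, exact permutation p = 0.0113). With the limit on low values brought down to a mean of 0.1, limma gave adjusted p-values over all genes of 0.406, 0.189 and 0.326 for these 3 differences, none of them past the threshold. Without WT F1 and WT M3 the differences were -0.42, -0.56 and -0.44 (exact permutation p of 0.0167, 0.05 and 0.00505).

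**Figure D3:**
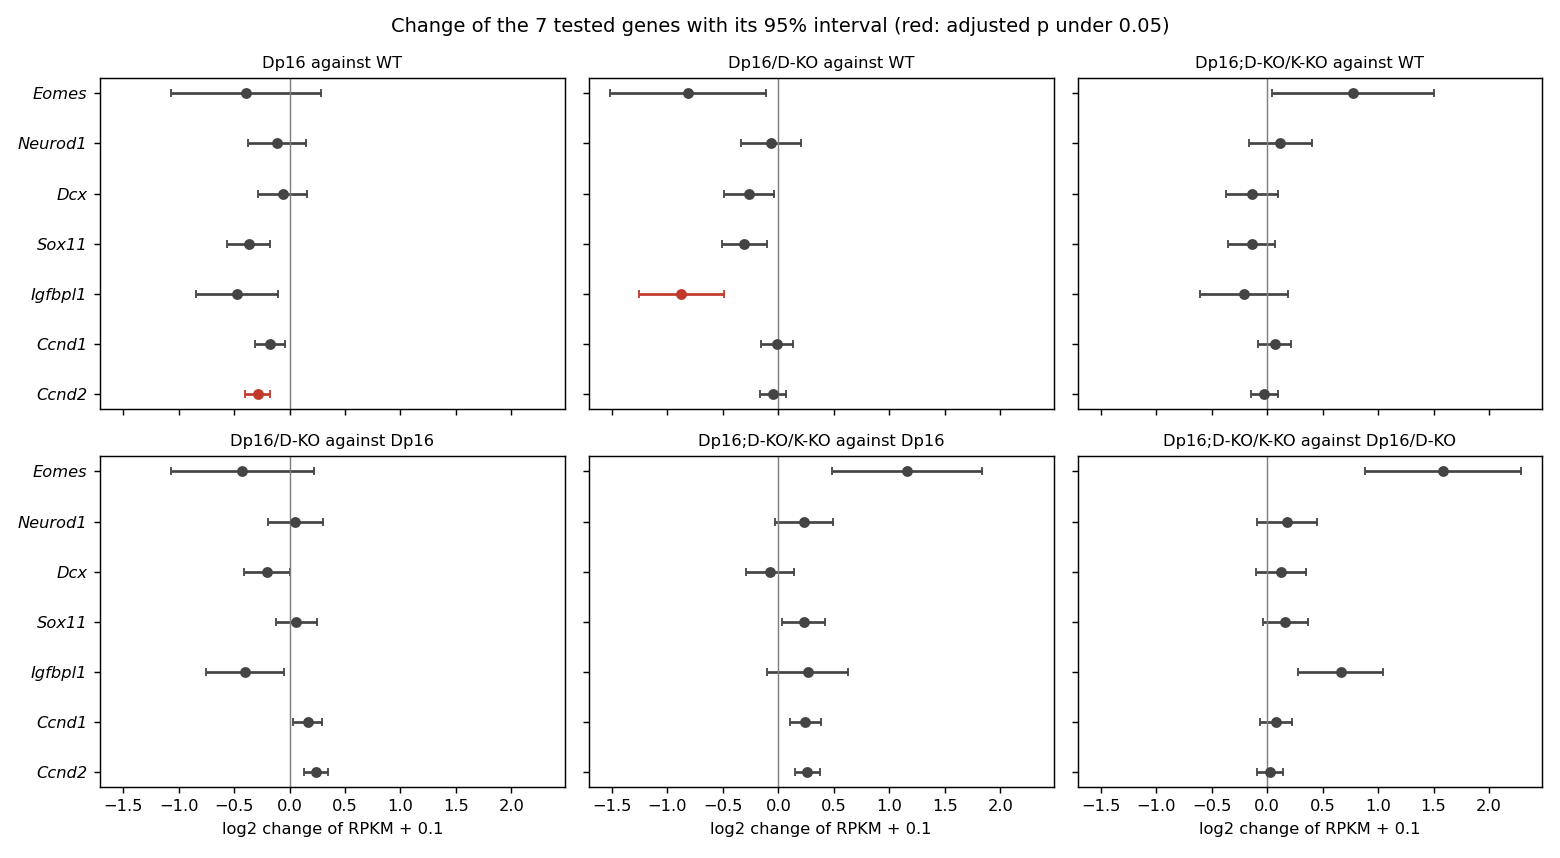
Log2 change of RPKM + 0.1 (horizontal axis) of the 7 genes in the test across all genes, with 95% intervals, in the 6 comparisons of groups; red marks an adjusted p under 0.05. Ccnd2 in Dp16 against WT (-0.29) and Igfbpl1 in Dp16/D-KO against WT (-0.88) are the 2 red points.

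Mki67 (chr7:135689788-135716409, minus strand) encodes the Ki-67 antigen, present in cycling cells. It was at 0.39, 0.36, 0.56, 0.33 and 0.36 RPKM in WT F1, F2, M2, M3 and M4, ran from 0.36 to 0.45 in Dp16 and from 0.28 to 0.40 in Dp16/D-KO, and was at 0.50, 0.38, 0.32, 0.21 and 0.36 in Dp16;D-KO/K-KO. Groups overlapped in every comparison, and M2, the library with the highest cerebellar markers, had the lowest Mki67 of all. The difference between Dp16 and WT was -0.01 on the log2 scale (exact permutation p = 0.909). Dp16/D-KO differed from Dp16 by -0.17 (exact permutation p = 0.0229 over 700 relabelings), for which limma with the lower limit gave an adjusted p of 0.573. Top2a (chr11:98992947-99024205, minus strand), DNA topoisomerase II alpha, which untangles chromosomes at mitosis, was at 0.44, 0.37, 0.54, 0.48 and 0.47 RPKM in WT and ran from 0.34 to 0.52 in Dp16 and from 0.34 to 0.49 in Dp16/D-KO. In Dp16;D-KO/K-KO it was at 0.63, 0.43, 0.41, 0.29 and 0.40. No comparison of Top2a separated the groups, and the smallest of its exact permutation p-values was 0.245.

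Mki67 and Top2a are both transcribed mainly from S phase to mitosis, and their promoters are shown because their levels had a positive Pearson r across libraries (below). The windows run from 250 bases before to 50 after the transcription start, from RefSeq on GRCm38.p6. Capitals mark CCAAT, the box bound by NF-Y, and TTTGAA, a form of the cell cycle homology region of genes expressed late in the cycle, each on either strand (ATTGG and TTCAAA when reversed).
Mki67, chr7:135716330-135716629, minus strand: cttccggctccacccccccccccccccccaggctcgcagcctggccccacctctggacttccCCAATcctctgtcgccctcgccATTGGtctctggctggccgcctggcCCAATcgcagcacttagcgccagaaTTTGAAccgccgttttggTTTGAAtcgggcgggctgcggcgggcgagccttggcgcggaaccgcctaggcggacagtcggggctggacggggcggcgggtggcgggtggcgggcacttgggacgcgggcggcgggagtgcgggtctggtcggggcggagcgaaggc
Top2a, chr11:99024140-99024439, minus strand: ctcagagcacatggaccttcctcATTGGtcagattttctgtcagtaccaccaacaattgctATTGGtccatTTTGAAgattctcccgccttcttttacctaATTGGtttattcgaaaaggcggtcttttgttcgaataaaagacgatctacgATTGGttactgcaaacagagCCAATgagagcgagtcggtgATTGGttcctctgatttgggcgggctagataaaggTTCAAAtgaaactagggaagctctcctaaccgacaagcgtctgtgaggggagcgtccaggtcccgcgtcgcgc
The Mki67 window holds 3 matches of CCAAT and 2 of TTTGAA, and the Top2a window 6 and 2, with no overlap between matches. Of 32851 mouse promoter windows in the same table, 37.41% hold CCAAT, 17.89% hold TTTGAA and 6.95% hold at least 1 of each. At least 3 and 2 of them are held by 0.0791%. That cut was taken from the Mki67 window itself, so its rarity is no independent support. A match describes the letters and is no measure of binding. Of the 10 genes, 7 have a promoter in the table, 8 promoters in all. Among the others, both Dcx windows hold 1 CCAAT, Eomes has 2 CCAAT, Sox11 has 1 match of each motif, and the Neurod1 and Draxin windows hold neither.

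Ccnd1 (chr7:144929931-144939937, minus strand) was at 14.07, 15.87, 14.82, 14.19 and 14.23 RPKM in WT F1, F2, M2, M3 and M4, a mean of 14.6 ± 0.748 (SD, n = 5). It ran from 11.61 to 14.47 in Dp16 with a median of 12.93 and a mean of 13.0 ± 0.946 (SD, n = 7), and from 12.25 to 15.85 in Dp16/D-KO with a median of 14.74. The Dp16;D-KO/K-KO libraries were at 17.19, 17.74, 13.34, 12.99 and 16.01. Only 1 Dp16 library, F1, reached the WT range, and in Dp16;D-KO/K-KO the 2 batch 1 libraries, M1 and M2, lay below the WT range and the 3 batch 2 libraries above it. The log2 changes were -0.18 in Dp16 against WT (interval -0.31 to -0.04, adjusted p = 0.217), 0.17 in Dp16/D-KO against Dp16 (0.04 to 0.30, adjusted p = 0.221) and 0.24 in Dp16;D-KO/K-KO against Dp16 (0.11 to 0.38, adjusted p = 0.170). None passed the test in limma. The first was -0.21 without WT F1 and WT M3 (adjusted p = 0.382), and the last was 0.09 in batch 1 and 0.36 in batch 2. Ccnd1 shares 1100 exon bases with LTO1 on the opposite strand, and the sources used here do not say whether counting used the strand.

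Ccnd2 (chr6:127122966-127152188, minus strand), the cyclin D that adult hippocampal neurogenesis is known to need in mice, was at 17.44, 18.92, 17.31, 15.95 and 17.58 RPKM in WT F1, F2, M2, M3 and M4, a mean of 17.4 ± 1.05 (SD, n = 5). In Dp16 it ran from 12.40 to 16.54 with a median of 14.03 and a mean of 14.3 ± 1.44 (SD, n = 7). Only Dp16 F2 (16.54) rose above the lowest WT library, M3, so the groups overlapped by a single Dp16 library. The log2 change of -0.29, with a standard error of 0.054 and an interval of -0.40 to -0.17, corresponds to 0.819 times the WT level and had an adjusted p of 0.00502 in limma with Benjamini-Hochberg adjustment. It was the 1 call among the 7 tested genes in a comparison where 1.45% of all tested genes were called, 0.594% in the lower direction. The change was -0.33 without WT F1 and WT M3 (adjusted p = 0.00762), and -0.33 in batch 1 and -0.26 in batch 2 (adjusted p of 0.296 and 0.270). The authors' deposited table gives -0.267 with an adjusted p of 0.197 and calls none of the 10 genes here.

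Ccnd2 in Dp16/D-KO ran from 14.26 to 19.34 RPKM with a median of 17.15 and a mean of 17.0 ± 1.76 (SD, n = 6). The Dp16;D-KO/K-KO libraries were at 20.42, 17.39, 15.36, 16.47 and 16.28 in F1, F2, M1, M2 and M3, a mean of 17.2 ± 1.95 (SD, n = 5). Both groups spanned the WT range and overlapped with Dp16, in the first through M1 and M2 and in the second through M1, M2 and M3. Against Dp16 the log2 change was 0.24 with an interval of 0.13 to 0.35 (adjusted p = 0.0633) for Dp16/D-KO, and 0.26 with an interval of 0.15 to 0.37 (adjusted p = 0.0730) for Dp16;D-KO/K-KO, neither past the threshold in limma. In the first of these comparisons 0.143% of all tested genes were called, in the second 0.0358%, and Ccnd2 stood at rank 31 and rank 17 of 13971 genes by p. Without WT F1 and WT M3, which enter through the shared spread and the batch and sex terms, the adjusted p-values were 0.0397 and 0.0554. Against WT the changes were -0.05 (interval -0.17 to 0.07) and -0.03 (-0.15 to 0.10). The comparisons share the Dp16 or the WT libraries, so their values are not independent of each other. Libraries with the letter M had less Ccnd2 than those with F, 15.4 against 17.5 RPKM on average (log2 difference -0.17, adjusted p = 0.325 in limma), with WT F1 and WT M3 counted by their labelled letters. Ccnd2 exons overlap the antisense transcripts Gm43126 and 9330179D12Rik by 372 and 368 bases, which cannot be told apart from Ccnd2 without strand.

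Ccnd2 was above Ccnd1 in 19 of 23 libraries. The third D-type cyclin, Ccnd3, had means of 15.7 RPKM in WT, 15.1 in Dp16, 15.4 in Dp16/D-KO and 17.2 in Dp16;D-KO/K-KO, and changed by -0.07 in Dp16 against WT (adjusted p = 0.831). Whether the change of Ccnd2 in Dp16 depended on batch or on the letter for sex was tested as an interaction. It was -0.33 and -0.26 in batch 1 and batch 2, a difference of 0.07 with an interval of -0.18 to 0.32 (adjusted p = 0.953), and -0.23 and -0.33 in F and M libraries, which count WT F1 and WT M3 by their labelled letters. Without those 2 libraries the changes were -0.41 and -0.30 in batch 1 and batch 2, with 1 WT library left in batch 1. They were -0.25 and -0.38 in F and M libraries, with 1 WT library left under F and 2 under M. No gene of the 7 was called for either difference.

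All 7 tested genes had lower fitted values in Dp16 than in WT, with a median of -0.29 where the median of all tested genes was -0.01 and 54.6% of them were lower. The genes were chosen with earlier results of these data known, so a shared direction among them is no independent test. At an unadjusted p under 0.05 there were 4 of the 7, against 13.8% of all genes. All 7 were also lower in Dp16/D-KO than in WT (median -0.26), 1 of them called and 4 at an unadjusted p under 0.05 (13.7% of all genes). In Dp16;D-KO/K-KO against WT 3 were higher and 4 lower (median -0.03), with 0 called in limma, where 0.752% of all genes were called, and 1 at an unadjusted p under 0.05 (9.83% of all genes). Against Dp16, 4 of the 7 were higher in Dp16/D-KO (median 0.05) and 6 in Dp16;D-KO/K-KO (median 0.24), with 0 called in either and 3 and 4 at an unadjusted p under 0.05 (15.2% and 11.3% of all genes). All 7 were higher in Dp16;D-KO/K-KO than in Dp16/D-KO (median 0.17), with 0 called among the members and 0% of all genes called, and 2 at an unadjusted p under 0.05 (9.02% of all genes). With all carriers of the duplication against WT all 7 were lower (median -0.14), with 0 called by limma, where 1.16% of all genes were called, and 3 at an unadjusted p under 0.05 (12.7% of all genes). Without WT F1 and WT M3 all 7 were again lower in Dp16 and in Dp16/D-KO than in WT, and Ccnd2 and Igfbpl1 were the calls there. The authors' deposited table calls 1 of the 10 genes in Dp16/D-KO against WT, Igfbpl1, and 1 in Dp16;D-KO/K-KO against Dp16/D-KO, Eomes.

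Wider lists of genes of the same steps were counted beside them. Like the genes above, they were chosen with earlier results of these data known, so their counts are no independent test. Of 35 genes of DNA replication and mitosis 26 were tested, and in Dp16 against WT 25 were lower and 1 higher, with a median of -0.13, where 54.6% of all tested genes were lower and 0.594% were called lower. Without WT F1 and WT M3, 22 of 25 were lower with a median of -0.13 and 0 called by limma (3 at an unadjusted p under 0.05), where 58.0% of all genes were lower. The 1 called was Mcm7, a subunit of the replicative helicase, which fell from 5.95 ± 0.563 to 4.70 ± 0.795 RPKM (SD), a log2 change of -0.34 (adjusted p = 0.0436), and -0.35 with an adjusted p of 0.160 without those libraries. Mcm6 of the same helicase was at -0.25 (adjusted p = 0.0690) and the mitotic kinase Plk1 at -0.39 (adjusted p = 0.241). Of the 29 tested genes of G1 and S phase entry 22 were lower and 7 higher, with a median of -0.08 and 0 called by limma, and 20 of 28 were lower without WT F1 and WT M3. The F-box protein Fbxo4, which acts in the turnover of cyclin D1, was at -0.31 (adjusted p = 0.0876), the kinase Dyrk1b at -0.26 (adjusted p = 0.138) and Cdk4, the partner of the D-type cyclins, at -0.16 (adjusted p = 0.188).

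The immature neuron list showed no common direction. Of its 24 tested genes 14 were lower and 10 higher in Dp16 than in WT, with a median of -0.04 and 0 called by limma, and 15 were lower without WT F1 and WT M3. Islr2 was at -0.27 (adjusted p = 0.103), Tubb3, the neuronal tubulin, at 0.18 (adjusted p = 0.112) and the neuropeptide gene Tac2 at 0.48 (adjusted p = 0.133). The stem cell list had 8 of 14 genes higher, a median of 0.05 and 0 called, and the median turned to -0.16 without those libraries, with 5 of 14 higher. Markers of mature granule neurons, the end of the same lineage and the most abundant neurons of the dentate gyrus, were lower in 12 of 13, with a median of -0.23 and 2 called. Over all tested genes 54.6% were lower and 0.594% were called lower. Without WT F1 and WT M3, 11 of 13 were lower with a median of -0.25 and 1 called, Rfx3 (adjusted p = 0.0480), while Npnt had an adjusted p of 0.189. Npnt fell from 8.0 ± 0.664 to 6.46 ± 0.483 RPKM (log2 change -0.31, adjusted p = 0.0359) and Rfx3 from 12.8 ± 1.41 to 10.2 ± 0.875 RPKM (-0.32, adjusted p = 0.00326).

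Against Dp16, 20 of the 26 proliferation genes were higher in Dp16/D-KO libraries and 20 in Dp16;D-KO/K-KO libraries, with medians of 0.08 and 0.07 and 0 called by limma. Over all tested genes 47.1% and 41.6% were lower in these comparisons, with medians of 0.01 and 0.02, so the larger part of all genes was also higher. The G1 and S entry list had 17 and 21 of 29 genes higher, and the immature neuron list 12 and 12 of 24, which is below the share of all genes that were higher. Markers of mature granule neurons were higher in 10 and 8 of 13, with medians of 0.04 and 0.03. Against WT they were lower in 11 of 13 in each group, where 53.1% and 48.6% of all tested genes were lower. Rfx3 was called in both, and Glis3 in Dp16/D-KO, where 1.28% (Dp16/D-KO) and 0.752% (Dp16;D-KO/K-KO) of all tested genes were called. These calls were lost without WT F1 and WT M3 (adjusted p of 0.0948 and 0.131 for Rfx3, and 0.0991 for Glis3). None of the 10 genes followed here is in these lists. Prox1 is in both the immature neuron and the mature granule neuron list, and the comparisons share libraries.

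**Figure D4:**
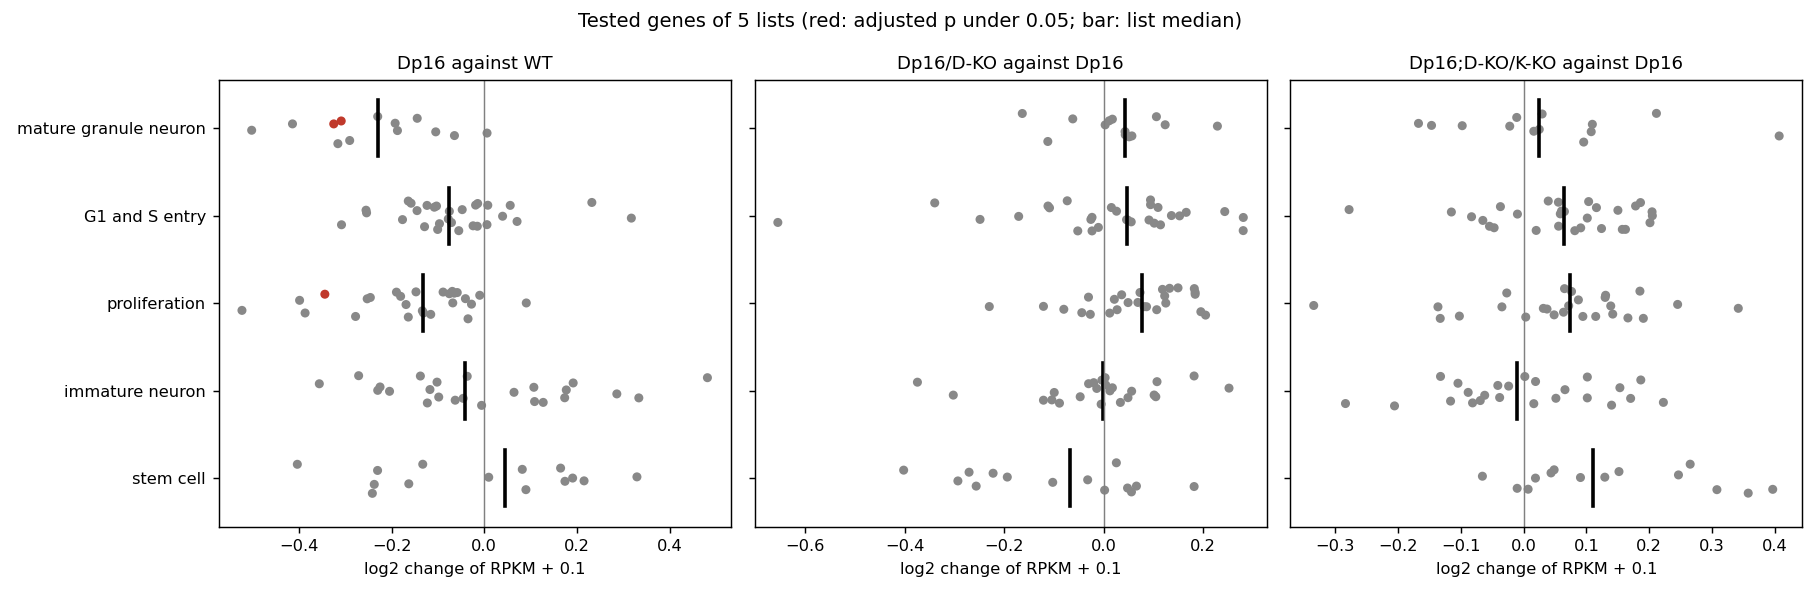
Log2 change of RPKM + 0.1 (horizontal axes) of the tested genes of 5 lists in Dp16 against WT and in each knockout-labelled group against Dp16; each point is a gene, the black bar the median of the list, and red an adjusted p under 0.05. In Dp16 against WT 25 of 26 proliferation genes and 12 of 13 mature granule neuron genes lie left of 0, while the immature neuron list lies on both sides.

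Other cell types that the dissection could hold varied between libraries. Summed choroid plexus markers, epithelium of the ventricle next to the hippocampus, ran from 73.56 to 2867 RPKM in WT, from 100.35 to 4429 in Dp16, from 50.33 to 3838 in Dp16/D-KO and from 84.02 to 4415 in Dp16;D-KO/K-KO, and none of their 12 genes was called in Dp16 against WT. Markers of olfactory bulb neuroblasts, another site of adult neurogenesis, summed to 55.38 to 69.11 RPKM in WT and 64.06 to 83.86 in Dp16, with 9 of 10 genes higher there (median 0.32) and 0 called by limma. Over all tested genes 54.6% were lower in Dp16 against WT. Myelin genes were lower in Dp16/D-KO in 12 of 12 against Dp16 (median -0.45) and 12 of 12 against WT, the comparison in which Igfbpl1 and, of the myelin genes, Ugt8a were called. In these comparisons 47.1% and 53.1% of all tested genes were lower, and 1.28% were called in the second. The myelin genes summed to 1380 to 2861 RPKM in Dp16/D-KO against 2543 to 3508 in WT. Markers of Cajal-Retzius cells, which like immature neurons lie in the dentate gyrus, had 2 of 4 genes lower in Dp16, and astrocyte markers 5 of 8. The part of these markers in the differences of the 10 genes was not tested.

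Levels of the 10 genes were also compared with each other over the 23 libraries, with group, batch and sex letter fitted out. Of 45 pairs 33 had a positive Pearson r, with a median of 0.195. Mki67 and Top2a had an r of 0.67 (permutation p = 0.00054, adjusted over 45 pairs to 0.0122) and a Spearman rho of 0.394 (permutation p = 0.0638, adjusted 0.261). Without the 2 libraries farthest from the median of Mki67 their r was 0.504, and it was 0.799 in batch 1 and 0.542 in batch 2. Eomes and Neurod1 had an r of 0.82 (permutation p = 4e-05, adjusted 0.0018) and a rho of 0.708 (permutation p = 0.00023, adjusted 0.0104), with an r of 0.676 without the 2 farthest libraries, and of 0.931 and 0.638 in the batches. Both pairs lean on Dp16;D-KO/K-KO M2, without which r was 0.558 and 0.551 (adjusted permutation p = 0.0606 each).

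Other pairs with Mki67 had a higher r without M2. Eomes and Mki67 had an r of -0.10 over 23 libraries (permutation p = 0.647, adjusted 0.787, rho = 0.175 with permutation p = 0.423, adjusted 0.624) and 0.679 without M2 (adjusted permutation p = 0.0113). Their r was 0.455 without the 2 farthest libraries, and -0.351 in batch 1 and 0.303 in batch 2. Igfbpl1 and Mki67 had an r of 0.52 (permutation p = 0.0113, adjusted 0.101), a rho of 0.588 (permutation p = 0.00387, adjusted 0.0539) and an r of 0.382 without the 2 farthest libraries. Their r was 0.416 in batch 1 and 0.694 in batch 2, and 0.778 without M2 (adjusted permutation p = 0.00225). Mki67 and Ccnd1 had an r of 0.54 (permutation p = 0.00726, adjusted 0.101) and a rho of 0.613 (permutation p = 0.00200, adjusted 0.0450), an r of 0.413 without the 2 farthest, and 0.531 and 0.562 in the batches. The cyclins Ccnd1 and Ccnd2 did not go together within groups (r = -0.16, permutation p = 0.472, adjusted 0.685, and rho = -0.0662, permutation p = 0.764, adjusted 0.828). Their r was 0.0901 without the 2 farthest libraries, and it differed in sign between batch 1 (-0.419) and batch 2 (0.143).

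**Figure D5:**
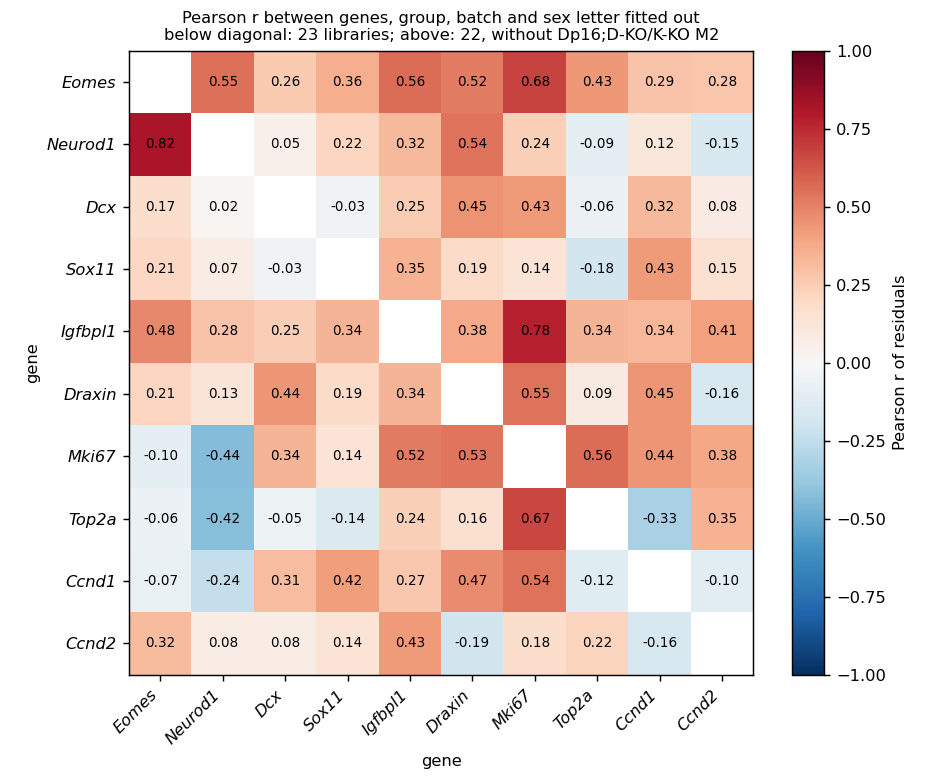
Pearson r between the 10 genes after group, batch and sex letter were fitted out, by colour and number; below the diagonal from 23 libraries, above it from 22 without Dp16;D-KO/K-KO M2. Eomes with Neurod1 goes from 0.82 to 0.55 and Mki67 with Igfbpl1 from 0.52 to 0.78 when M2 is left out.

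Over the 23 libraries, with batch and sex letter fitted out but not group, the 5 genes with the pattern most like Ccnd2 included Pnrc2 (Pearson r of 0.892), N4bp2 (0.790), Ccng2 and Wdyhv1. Without WT F1 and WT M3, 4 of the 5 were again among the 5 most like it. For Ccnd1 they were Cwf19l1 (0.801), Tmem198 (0.798), Lcor, Rbm48 and Rbm14, also 4 of 5 shared. The gene most like Sox11 was Cecr2 (0.812), followed by Spred1, Micalcl, Lcor and Ankrd45, of which 1 of 5 was shared without the WT libraries. Dcx was most like Rgs6 (0.817) and Lrrn3 (0.816), then Zfp608, Clasp2 and Klf7, and Igfbpl1 most like Xpo4 (0.783) and Grk5 (0.757), then Smad5, Myo10 and Trim59.

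For Eomes the 5 included Zic2 (0.824), Gdf10, Car8 and Atp2a3, and for Neurod1 Gdf10 (0.859), Grm4, Adgrg1 and Gabra6. None of either 5 was shared when Dp16;D-KO/K-KO M2 was left out, where Itga6 (0.823) and Tstd3 (0.784) came first. Mki67 was most like Ddx10 (0.765), then Pcdh17, Tbc1d19, Dock10 and Slitrk2, with 1 of 5 shared without M2. Top2a was most like Rad18 (0.737), then Ankib1, Slk, Anapc1 and Acp2, with 4 of 5 shared, and Draxin most like Il1rap (0.779), then Cd46, Zfp263, Ubn2 and Itga6, also with 4 of 5. These values describe the 23 libraries, which share batch and dissection.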

How the data were processed

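The authors deposited 1 RPKM value per gene and library, rounded to 2 decimals, with their own log2 fold changes, p-values and adjusted p-values. Reads were aligned with HISAT to mm10, per the submitters' processing notes. Versions, the way of counting, gene lengths and strand are not stated in these sources. Counts were not used. All sample columns were mapped to samples by their names.

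Of 21785 genes 2721 had no value, and 13971 with a mean RPKM of at least 0.5 were tested, among them 7 of the 10. They were tested with limma (version 3.58.1, R 4.3.3) on log2(RPKM + 0.1), with an intensity trend, all 4 groups, batch and sex letter in 1 model, two-sided, with Benjamini-Hochberg adjustment over all tested genes, and a call at an adjusted p under 0.05. A fold change on this scale understates that of low genes. The 3 lower genes were compared by exact permutation within batches, and relations by 100000 resamples in numpy 2.4.6 with ranks from scipy 1.17.1. The limma fit and the exact permutation were tested on simulated data, the resampling was not. The resampling did not allow for the terms fitted out beforehand, so its p-values are too small. Depth was estimated from the steps of low values above 0 in 385 short genes, 113 to 143 values per library. The depth taken was the one that put these values closest to whole reads. At that depth 43.2% to 58.7% of them lay within 0.15 read of a whole number. The 30% given by chance holds for a depth fixed beforehand, so the excess is no check of the depths or read counts. The intervals hold no counting error of their own. The sum of RPKM per library was 353904 to 373054.

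Positions and exon overlaps came from the table and GENCODE vM21, promoters from RefSeq. The genes and lists were chosen with earlier results of these data known. Named are the 10 genes, Dyrk1a and Kcnj6, the called genes of the main lists, the 3 of smallest p in 3 lists, and the 5 most like each gene, counting genes whose mean RPKM was 1 or more. Some genes that this rule names are left out of the text. Libraries of the same replicate label and batch deviated together no more than others (mean r of 0.254 each), so the labels were not taken as pairs. Alternatives changed the pseudocount, filter, scaling, covariates, batches, spread model and libraries.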

Additional observations from a re-analysis of the deposited data

Results flagged for a closer look

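In 40 sets of values, 1 per gene and genotype, the highest and the lowest library were compared with the rest, a comparison that flags about 1 set in 20 by chance. Dcx in WT M2, at 3.63 RPKM, stood above the other WT libraries by 0.810 of the group's range. Mki67 in WT M2, at 0.56 RPKM, stood above them by 0.739 of the range, so both values come from the same library. Eomes in Dp16;D-KO/K-KO M2, at 3.96 RPKM, stood above the rest of its group by 0.817 of the range, in the library with the highest cerebellar markers.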

How the results depend on the processing

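Over single genes and comparisons, 1576 of 1603 values without 1 library and 1013 of 1041 under other settings stayed on their side of the threshold. Most of these results were not past it in the main setting, so the shares say little about the called ones. Of the values that moved, 18 and 20 lost a call and 9 and 8 gained one. The counts take limma adjusted p and unadjusted permutation p together. Among values called in neither setting, 15 and 16 changed sign, and no called value did. The number of the 7 tested genes called in Dp16 against WT was 1, and 2 with a pseudocount of 0.5 or 1 or no intensity trend, where Sox11 was added (adjusted p of 0.0495, 0.0475 and 0.0392), 0 in batch 1 or batch 2 alone, and 1 to 2 without 1 library. In Dp16/D-KO against WT it was 1, 0 in either batch alone, where fewer libraries enter, and 0 to 1 without 1 library, lost without WT M2. In Dp16/D-KO against Dp16 it was 0, and 1 with array weights or without WT F1 and M3 (Ccnd2, adjusted p of 0.0169 and 0.0397), and 0 to 1 without 1 library, gained without WT M3 (0.0354) or Dp16/D-KO F3 (0.0466). In Dp16;D-KO/K-KO against Dp16 it was 0, 1 with array weights (Ccnd2, 0.0398) and 0 to 1 without 1 library, gained without WT M3 (0.0424). In Dp16;D-KO/K-KO against Dp16/D-KO it was 0, and 1 with array weights (Eomes, 0.0485). The cause was not tested. Of the 21 permutation tests of low genes, 4 were under 0.05, and 1 to 5 without 1 library. Over all genes the calls in Dp16 against WT were 202, and 116 to 275 without 1 library, 95 without WT F1 and M3, 93 with only these groups, and 49 and 65 in the batches. Those in Dp16/D-KO against Dp16 were 20, and 0 to 105 without 1 library. With the replicate block and batch, Ccnd2 in Dp16 against WT was at -0.27 (adjusted p = 0.0219), Igfbpl1 in Dp16/D-KO against WT at -0.82 (0.0192), and no call among the 7 genes changed. The depth of the low genes, 60 reads or fewer in the median library, limits what their comparisons can show.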
